A study of Mus musculus with 9 samples.

Results

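The long noncoding RNA genes listed as changed by MGH-CP1 were followed in EHE17, a mouse tumour cell line labelled endothelial. They were all rows of the deposited MGH-CP1 gene table with the biotype lincRNA (22 genes), processed_transcript (10 genes) or bidirectional_promoter_lncRNA (2 genes), which gave 34 of the 471 genes in that table. The biotype alone chose them within a table that already held only changed genes: every gene in it had a deposited adjusted p below 0.05 and a log2 change of at least 1 in size. A gene outside the table was not analysed here, and nothing is said of its response.

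All cells carried the genotype written TC+/+ Cdkn2a -/-, so vehicle and treated cells alike lack Cdkn2a, which encodes the p16 and ARF tumour suppressors. The vehicle group received DMSO (3 libraries) and the treated group 10 µM MGH-CP1 for 16 h (3 libraries), each as biological triplicates of 1 cell line. MGH-CP1 inhibits the palmitoylation of TEAD, the DNA-binding partner of YAP and TAZ. Another group received 300 nM dinaciclib for 16 h, but 0 of the 34 genes were in its table. Of 10 endothelial markers, Vwf (von Willebrand factor) was in the MGH-CP1 table, at 63.5, 77.2 and 60 normalised counts in vehicle and 16.2, 31.1 and 14.3 with the compound, and Kdr and Fli1 were in the separately normalised dinaciclib table, Kdr at 8628, 8524 and 8100 and Fli1 at 1141, 1138 and 1176 in the vehicle libraries; the other 7 were not analysed here. Of 6 myeloid markers, Cd68 stood at 8.82, 18.1 and 9.77 against 71.8, 36.7 and 55.9 and Lyz2 at 205, 171 and 186 against 66, 117 and 95.1, 1 higher and 1 lower, while 0 of 6 fibroblast or mural and 0 of 4 epithelial markers were in the table. The part of other cell types in the results was not tested, and in bulk RNA fewer cells of a type and less RNA per cell cannot be told apart.

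Long noncoding RNAs are transcripts without a long open reading frame. Some stay in the nucleus, where Malat1 gathers at nuclear speckles beside splicing factors and Xist coats the inactive X chromosome. Others are best known for the locus they lie in, such as the imprinted H19, which also hosts a microRNA, and the p53-induced Trp53cor1 (lincRNA-p21), which lies beside the cell cycle inhibitor gene Cdkn1a. Malat1 has been studied in endothelial cells as a regulator of vessel growth. Its 3′ end is not made by ordinary polyadenylation: RNase P cuts it, and a triple helix of U-rich stretches with an A-rich tract protects it. Because these libraries were captured on poly-T beads, that encoded A tract is shown here. It was read from the GENCODE M21 transcript Malat1-201 (positions 6606 to 6691, chr19:5795982-5796067, minus strand, GRCm38), with both U-rich motifs and the A-rich tract in capitals.
Malat1 3′ element: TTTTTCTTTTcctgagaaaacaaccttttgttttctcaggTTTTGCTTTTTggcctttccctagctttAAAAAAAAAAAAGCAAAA

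The microRNA hosted by H19 is shown because H19 was the fall with the smallest adjusted p. Both mature forms are from RefSeq (GRCm38.p6, chromosome 7, minus strand), with the seed, bases 2 to 8, in capitals. The hairpin was found in 3 of the 7 annotated H19 transcripts. The microRNA itself was not measured, and the 2 seeds differ.
mmu-miR-675-5p: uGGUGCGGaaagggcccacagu
mmu-miR-675-3p: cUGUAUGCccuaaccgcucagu

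Of the 34 genes, 22 were higher and 12 lower with MGH-CP1 by the authors' deposited table, in which 57.3% of all listed genes were higher and 42.7% lower. Enough counts for a test were found in 25, and 14 of these rose while 11 fell (edgeR quasi-likelihood test, p-values adjusted by Benjamini-Hochberg across every tested gene of the table). The background was a call for 100% of the 355 tested genes, 49.3% higher and 50.7% lower, so passing the test says nothing particular of these RNAs. The median log2 change was 1.30 among the 14 rises and −1.41 among the 11 falls, beside 1.48 and −1.42 over all tested genes. By biotype, 10 lincRNA genes rose and 4 fell, while 3 processed_transcript genes rose and 6 fell. Replicate ranges did not overlap for 33 of the 34 (97.1%), against 97.7% of all listed genes. The exception was 9330188P03Rik, at 11.5, 17.2 and 5.58 normalised counts in vehicle and 15.1, 33.9 and 38 with MGH-CP1. Normalised counts are counts divided by the authors' size factor of each library.

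**Figure D1:**
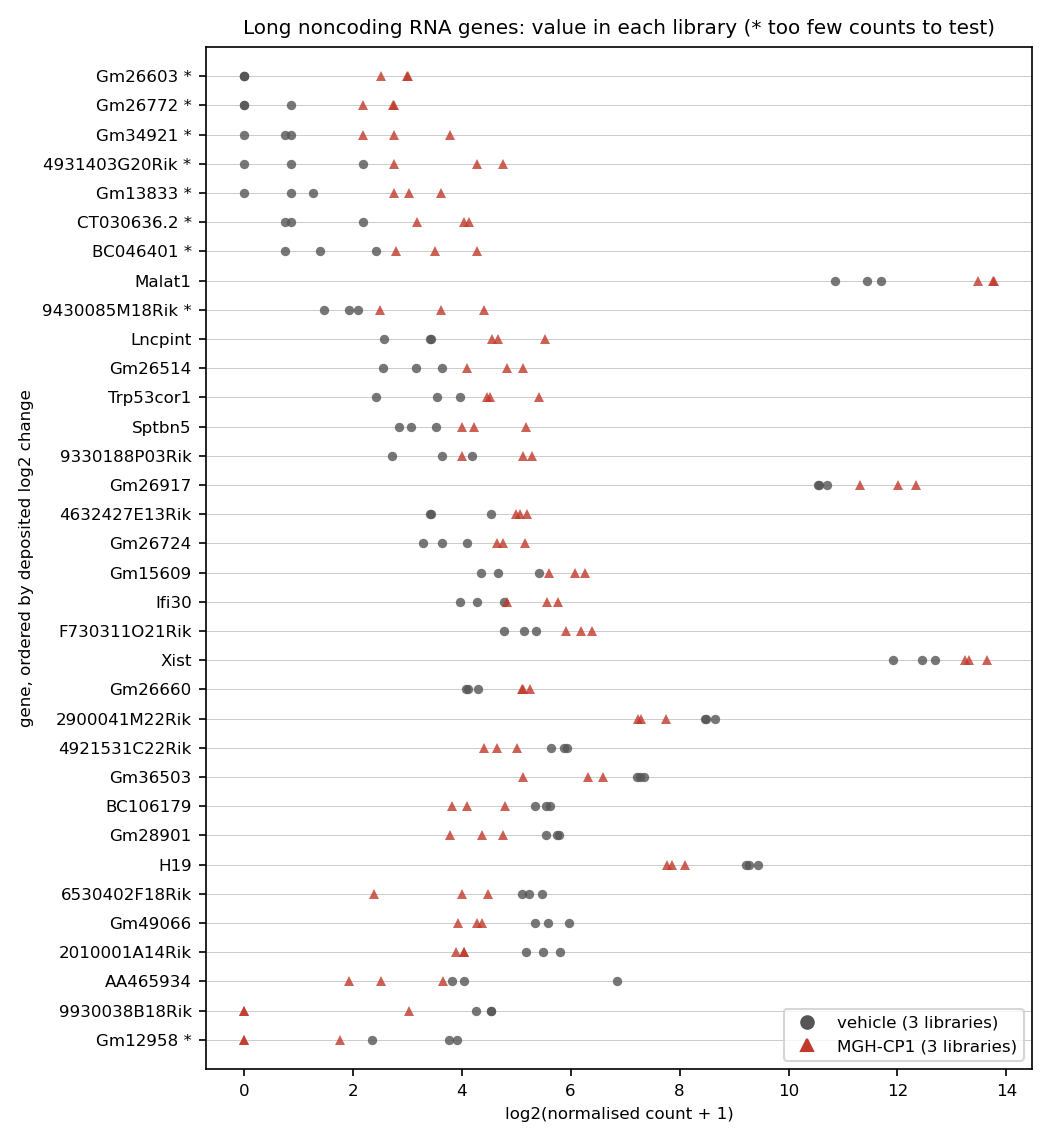
Each row is 1 long noncoding RNA gene and each point 1 library, on a log2(normalised count + 1) axis, with vehicle as grey circles and MGH-CP1 as red triangles; asterisks mark the 9 genes with too few counts to test. Malat1, Xist and Gm26917 lie far to the right of the other genes, and 9330188P03Rik is the gene whose groups overlap.

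The 25 tested genes are spread from Malat1, with the largest rise, to 9930038B18Rik, with the largest fall (the plot of log2 changes). Of the 34, 16 share exon bases with another annotated gene, most often on the opposite strand. The labels describe no strand-marking step, so reads of such pairs cannot be told apart. Without those genes 12 calls were left, 6 higher and 6 lower.

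**Figure D2:**
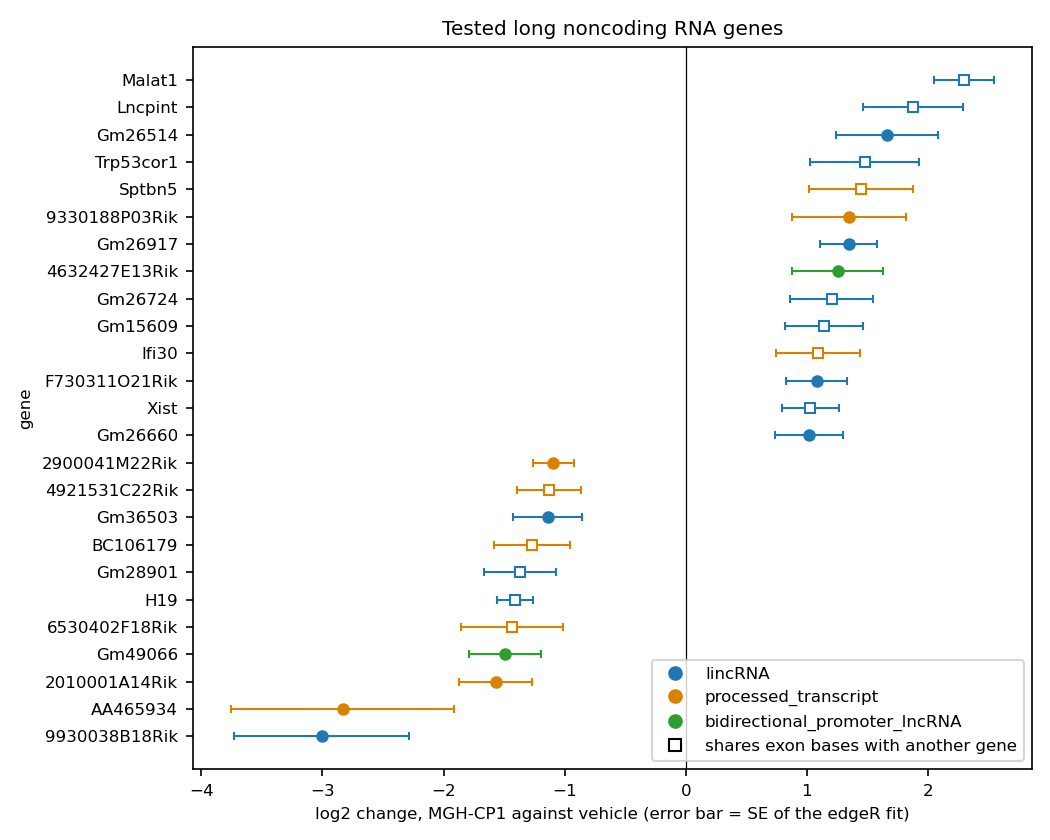
Log2 change of MGH-CP1 against vehicle for the 25 tested genes, with the SE of the edgeR fit as error bars, coloured by biotype; open squares share exon bases with another gene. The 14 rises run from 1.02 (Gm26660) to 2.30 (Malat1), and the falls reach −3.00 (9930038B18Rik).

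Malat1 (chr19:5795690-5802672, 1 exon) was the largest rise among the tested genes. It stood at 1857, 3333 and 2791 normalised counts in the vehicle libraries and at 11346, 13872 and 14069 with MGH-CP1. The groups were far apart, and vehicle replicate 1 was the lowest library. The rise was 4.92-fold (edgeR log2 change 2.30, SE 0.25, Benjamini-Hochberg adjusted p of 2.23e-05). On the per-length scale Malat1 went from 13.6 ± 3.83 to 66.6 ± 7.74 FPKM (SD, n = 3) and became the highest of the 34.

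Xist (chrX:103460366-103483254) stood at 3851, 6601 and 5567 normalised counts in vehicle and 10206, 9724 and 12793 with MGH-CP1. The groups did not overlap, and vehicle replicate 1 was again the lowest library. Xist rose by a log2 of 1.03 (SE 0.23, edgeR adjusted p of 0.0018). The opposite-strand Xist antagonist Tsix shares 1980 exon bases with Xist.

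Gm26917 (chr17:39843013-39846341), a gene of 1 exon, stood at 1659, 1515 and 1496 in vehicle and 4134, 5179 and 2552 with MGH-CP1, a log2 change of 1.34 with SE 0.24 (edgeR adjusted p of 0.000462). It ends 12 bases from the listed rRNA gene CT010467.1, which the table describes as an 18S-related sequence, on the other strand. CT010467.1 stood at 34992, 15539 and 11233 in vehicle and 172879, 226237 and 96274 with MGH-CP1. In both genes MGH-CP1 replicate 2 was the highest and replicate 3 the lowest treated library. Counts of CT010467.1 were 7.51 to 21.1 times those of Gm26917 in vehicle and 37.7 to 43.7 times with MGH-CP1, so the ratio of these neighbours was not constant.

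RNAs that lack a long poly(A) tail were listed as changed too. The 21 listed (rRNA, 7SK, mitochondrial rRNA and tRNA, a small Cajal body RNA and replication-dependent histone genes) were higher in 21 of 21 cases by the deposited table. Together they took 0.0488% to 0.135% of all counts in vehicle and 0.360% to 0.835% with MGH-CP1, nearly all of it from CT010467.1 (0.0402% to 0.125% and 0.342% to 0.803%). The other 20 together took 0.00857% to 0.0104% in vehicle and 0.0183% to 0.0316% with MGH-CP1. Among the treated libraries CT010467.1 was lowest in replicate 3, at 0.342%, where Malat1 stood at 0.05%, against 0.0403% in replicate 1 and 0.0493% in replicate 2. Most of the 21 were highest in replicate 2, as CT010467.1 was, among them mt-Rnr1 (0.0277%) and mt-Tc (0.00155%). Fewer were highest in replicate 3, among them the mitochondrial tRNAs mt-Ts2 (0.000448%) and mt-Th (0.000418%). The part of library content in the rises of Malat1, Xist and Gm26917 was not tested.

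**Figure D3:**
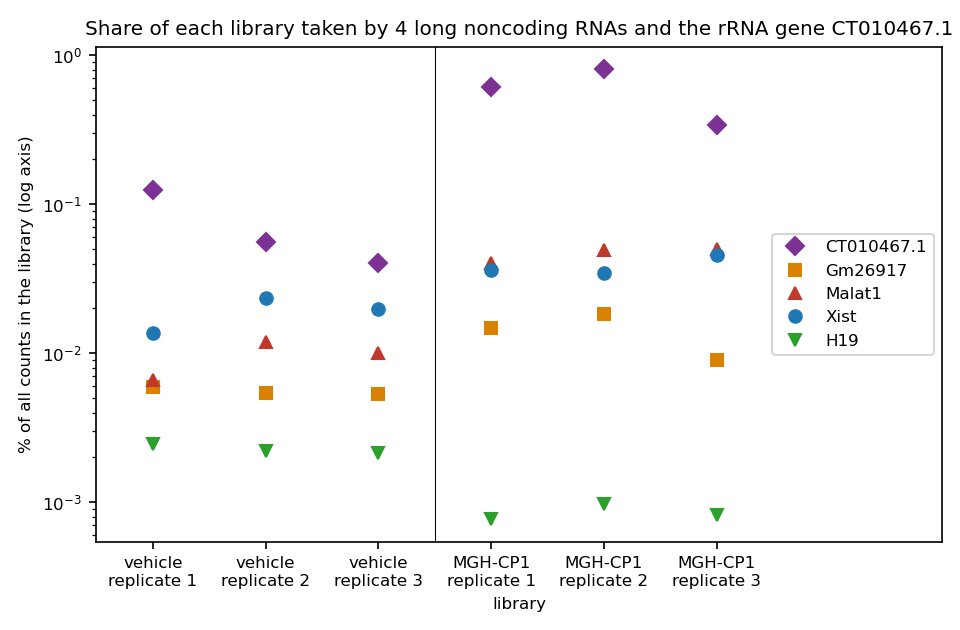
Share of all counts in each of the 6 libraries, on a log axis, for CT010467.1, Gm26917, Malat1, Xist and H19. CT010467.1 and Gm26917 are lowest in MGH-CP1 replicate 3 among treated libraries, Malat1 is at 0.05% there, and H19 is lower in every treated library than in any vehicle library.

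These 3 RNAs made up most of the group's reads: Malat1, Xist and Gm26917 together were 80.6% to 86.7% of the counts of the 34 genes in vehicle and 96.2% in each MGH-CP1 library. Of 10 RNAs studied in endothelium or vessels, Malat1 was the 1 listed. Of a list of 13 RNAs, most of them nuclear-retained, 3 were in the table and all were higher. The one outside the group was Kcnq1ot1, an imprinted antisense RNA, at 34.4, 41.1 and 51.6 in vehicle and 109, 138 and 130 with MGH-CP1 (edgeR log2 change 1.56, SE 0.22, adjusted p of 0.000116). Of a list of 25 host RNAs, most of them of small nucleolar RNAs and some of microRNAs, 0 were in the table. AA465934, which was not on that list, spans the small nucleolar RNA Snord7. Of 13 genes for processing and paraspeckle proteins of Malat1 and Neat1, 0 were in it. Of a list of 20 symbols of nuclear RNA decay genes, some of them older names of a gene also on it, Pabpn1 was listed. It encodes the nuclear poly(A)-binding protein, which takes part in the decay of polyadenylated nuclear noncoding RNA. It fell, from 580, 642 and 611 to 246, 216 and 210 (log2 change −1.45, SE 0.14, edgeR adjusted p of 1.17e-05).

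The p53-linked RNAs Lncpint and Trp53cor1 rose from low levels. Lncpint (chr6:31082565-31220488) stood at 9.70, 4.93 and 9.77 in vehicle and 24.3, 45.2 and 22.6 with MGH-CP1. The groups were apart (edgeR log2 change 1.88, SE 0.41, adjusted p of 0.00156). It shares 138 exon bases with the opposite-strand 2210408F21Rik. Gm13833, a lincRNA gene on the opposite strand, lies wholly within an intronic part of Lncpint, from 116 to 118 kb after its start, and shares 0 exon bases with it. Without strand, reads from the introns of Lncpint cannot be told apart from those of Gm13833. Gm13833 had 3 counts in the 3 vehicle libraries together and 19 with MGH-CP1, too few to test, a ratio of 9.94 (95% counting interval 2.92 to 52.4).

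**Figure D4:**
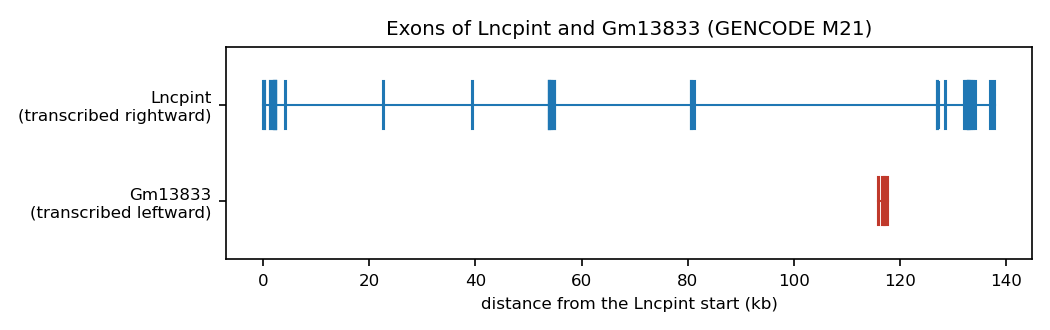
Exons of Lncpint and of the opposite-strand Gm13833 in GENCODE M21, drawn as boxes against distance from the Lncpint start in kb, with the shortest exons widened to a minimum width. Gm13833 sits at 116 to 118 kb of the 138 kb Lncpint gene, between its exons.

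Trp53cor1 (chr17:29057430-29079179) stood at 4.41, 10.7 and 14.7 in vehicle and 22, 21.2 and 41.6 with MGH-CP1. It rose by a log2 of 1.48 (SE 0.45, edgeR adjusted p of 0.0081), a call that rested on MGH-CP1 replicate 3: without that library the value was 1.08 (edgeR adjusted p of 0.0515). Its start is 11797 bases from that of Cdkn1a, which was not in the table. It shares 1645 exon bases with the opposite-strand lincRNA gene AC167363.1.

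H19 (chr7:142575529-142578143) fell with little spread. It stood at 693, 621 and 598 normalised counts in vehicle and 217, 274 and 231 with MGH-CP1. The highest treated library, at 274, lay far below the lowest vehicle library, at 598 (edgeR log2 change −1.41, SE 0.15, adjusted p of 2.03e-05). Of a list of 9 imprinted RNAs, H19 and Kcnq1ot1 were in the table, 1 lower and 1 higher. Another RNA of an imprinted region, CT030636.2, lies inside Airn on the opposite strand, 26082 bases from Igf2r. It had 6 counts over the vehicle libraries and 32 with MGH-CP1 and was not tested.

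**Figure D5:**
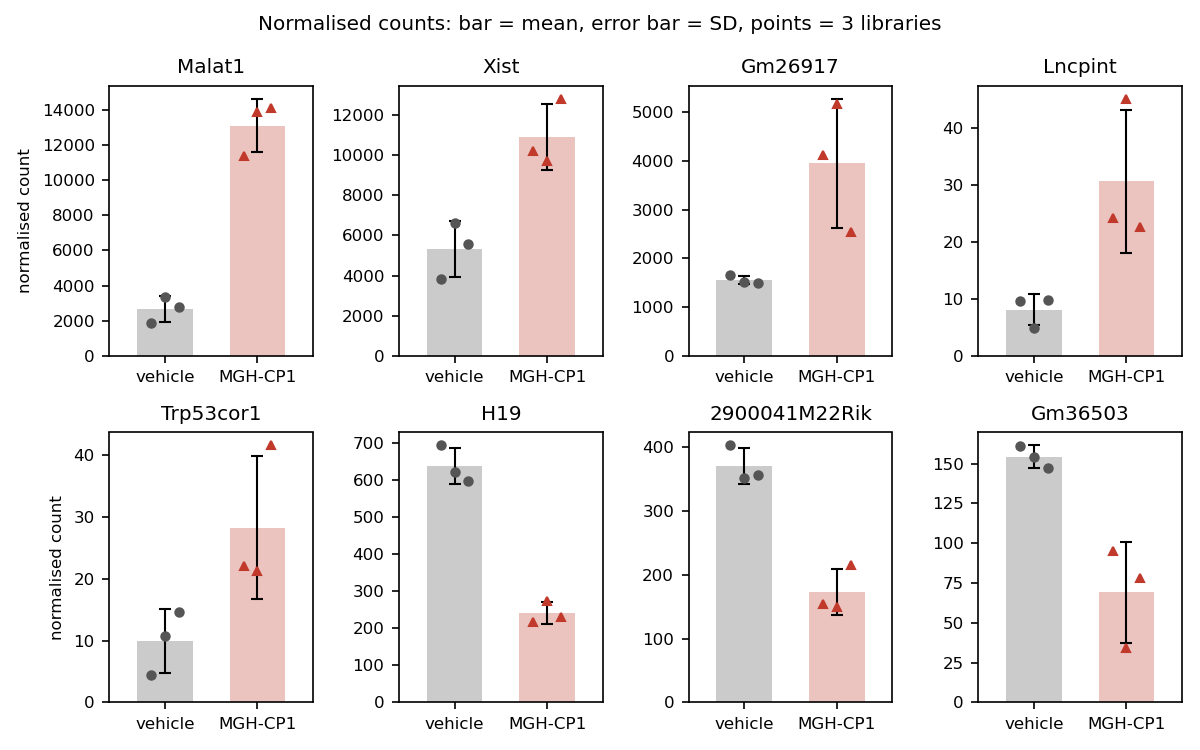
Normalised counts of 8 genes in vehicle (grey) and MGH-CP1 (red), with bars for the mean, error bars for the SD and points for the 3 libraries of each group; every axis starts at 0. The groups are apart in each panel, with Gm26917 at 2552 to 5179 and Lncpint at 22.6 to 45.2 showing the wide spread of the treated libraries.

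Besides H19, the falls with the highest levels were 2900041M22Rik and Gm36503. The first, a gene of 2 exons on chromosome 11 (117611247 to 117613857), stood at 403, 352 and 357 in vehicle and 155, 150 and 215 with MGH-CP1 (log2 change −1.09, SE 0.17, edgeR adjusted p of 0.000188). Gm36503, on chromosome 6 and 253500 bases from the nearest coding gene, Tfec, stood at 161, 154 and 147 against 95, 33.9 and 78.4. Both groups were apart for these genes, and the lowest value of Gm36503 was in MGH-CP1 replicate 2.

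Other falls began at or near a coding gene. Gm49066 starts 31 bases from Ptk2, which encodes focal adhesion kinase, on the opposite strand, and stood at 61.7, 39.4 and 46.8 against 19.7, 18.4 and 14.3. The gene 2010001A14Rik starts 220 bases from Sap30l and stood at 54.7, 35.3 and 44 against 13.9, 15.5 and 15.5. In both, every treated library was below every vehicle library. The edgeR log2 changes were −1.49 (adjusted p of 0.000942) and −1.57 (adjusted p of 0.000724). The gene 4921531C22Rik shares 62 exon bases with Taf4, a TFIID subunit gene on the other strand, and stood at 60, 57.5 and 48.9 against 31.3, 24 and 20.2. BC106179 shares 200 exon bases with the sialyltransferase gene St6gal1 and 1582 with B630019A10Rik, both on the other strand, and stood at 48.5, 46 and 39.8 against 16.2, 26.8 and 13.1. Both fell, with groups apart (edgeR log2 changes −1.13 and −1.27, adjusted p of 0.00207 and 0.00293). For 6530402F18Rik, at 43.2, 36.9 and 33.5 against 15.1, 4.24 and 21.4, 558 exon bases are shared with Ntng2 on the same strand, and reads there cannot be told apart.

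Gm28901, which shares 406 exon bases with a pseudogene, stood at 45.9, 54.2 and 53 against 19.7, 12.7 and 26.1. The fall of AA465934, within which the small nucleolar RNA Snord7 lies, rested on 1 library: vehicle replicate 2 stood at 115 beside 13.2 and 15.4, and without it the log2 change was −1.11 (edgeR adjusted p of 0.0736) in place of −2.83. Without MGH-CP1 replicate 1 it was −3.59. The largest fall among the tested genes, 9930038B18Rik, was at 22.1, 22.2 and 18.1 in vehicle and at 0, 0 and 7.13 with MGH-CP1. Its log2 change of −3.00 was therefore set by 6 counts in 1 library. The change was −2.40 without MGH-CP1 replicate 1, and without replicate 3 no count was left in the treated group.

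Of the 22 genes listed as higher, 7 lie wholly inside a protein-coding gene on either strand, and of the 12 listed as lower, 0 do. That is 20.6% of the 34, beside 5.72% of the 6834 genes that GENCODE M21 gives these biotypes. The sets were not drawn alike: the 34 follow the authors' biotypes and were detected, while the 6834 follow GENCODE M21, detected or not. Gm15609, inside the synaptic scaffold gene Shank3, stood at 19.4, 41.9 and 24.4 in vehicle and 47.5, 76.3 and 66.6 with MGH-CP1 (edgeR log2 change 1.14, SE 0.32, adjusted p of 0.00584). Gm26514, inside Slc35b3 on the same strand, stood at 7.94, 11.5 and 4.89 against 16.2, 33.9 and 27.3, with a log2 change of 1.66. Gm26724, inside Lemd2, is listed as lincRNA in the authors' table but as antisense in GENCODE M21, which leaves it out of the 6834. It stood at 8.82, 11.5 and 16.1 against 34.8, 24 and 26.1 (edgeR adjusted p of 0.00602). The other 4 (Gm26603 in Fmnl2, Gm26772 in Zmiz1, 4931403G20Rik in Map4k5 and BC046401 in Zmynd8) had too few counts to test. Without strand, reads from the introns of the coding gene cannot be told apart from those of the RNA inside it. The same holds for CT030636.2 inside the noncoding gene Airn and for Gm26660 inside the antisense gene Zmiz1os1.

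A pair of RNAs flanked the start of Zmiz1, a coactivator gene, on its opposite strand. Gm26660, within the antisense gene Zmiz1os1, starts 79576 bases from the Zmiz1 start and stood at 15.9, 16.4 and 18.8 in vehicle and 37.1, 33.9 and 33.3 with MGH-CP1. The groups were apart with little spread (log2 change 1.02, SE 0.28, edgeR adjusted p of 0.0049). Gm26772, inside Zmiz1 and 168781 bases from Gm26660, had 1 count over the vehicle libraries and 12 with MGH-CP1, a ratio of 18.8 (95% counting interval 2.79 to 805).

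Some members of the class are coding genes under other annotations. RefSeq lists Ifi30, the interferon-inducible lysosomal thiol reductase gene, and Sptbn5, a spectrin gene, as protein-coding. Ifi30 stood at 18.5, 26.3 and 14.7 in vehicle and 46.3, 53.7 and 27.3 with MGH-CP1, and the lowest treated library was just above the highest vehicle library (log2 change 1.09, SE 0.35, edgeR adjusted p of 0.00986). Sptbn5 stood at 6.17, 7.39 and 10.5 against 15.1, 35.3 and 17.8 (log2 change 1.45, SE 0.43). It shares exon bases with Pla2g4b and Gm28042 on the opposite strand.

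The remaining tested rises were F730311O21Rik, 6689 bases from Tmcc2, at 26.5, 40.2 and 34.2 against 59.1, 72 and 83.2, and 4632427E13Rik, which starts 135 bases from Rab30 on the opposite strand, at 9.70, 22.2 and 9.77 against 35.9, 32.5 and 30.9. The rise of 9330188P03Rik lost its call without vehicle replicate 3 (edgeR adjusted p of 0.052) or MGH-CP1 replicate 3 (adjusted p of 0.0717).

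In all, 9 genes were left untested: 8 with more counts with MGH-CP1 and 1, Gm12958, with more in vehicle. Gm26603 had 0 counts in the vehicle libraries and 15 with MGH-CP1, and was at least 7.84-fold higher, taking 3 counts over the vehicle group as the floor and leaving out the counting error of the 15. Gm34921, whose gene ends 197 bases past the ERK phosphatase gene Dusp6, had 2 counts in vehicle and 17 with MGH-CP1, a ratio of 13.3 (3.17 to 119). Gm12958 had 39 counts in vehicle and 2 with MGH-CP1, 12.4 times more in vehicle (3.22 to 106). For 4931403G20Rik the sums were 5 and 40, for BC046401 8 and 27, and for 9430085M18Rik 10 and 29. The intervals given for the ratios are exact 95% binomial ones and cover counting error only.

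No coding neighbour gave a value for MGH-CP1. A protein-coding gene lay within 50 kb of 28 of the 34 genes and within 10 kb of 19, but in 0 cases was the nearest one in the MGH-CP1 table. No other coding gene of the table lay within 100 kb of any of the 34 either, while 6.79% of all listed genes had one that near. A listed gene of any biotype lay within 100 kb of 11.8% of the 34 and of 15.3% of all listed genes. In the dinaciclib table, which shares the vehicle libraries, Srsf3 was the 1 coding gene within 50 kb. This splicing factor gene lies 14057 bases from Trp53cor1, and its values there concern the other compound.

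On the per-length scale the order of levels in vehicle was Gm26917 (16.7 ± 0.917 FPKM, SD, n = 3), Malat1 (13.6 ± 3.83), Xist (10.6 ± 2.77), H19 (9.25 ± 0.697), 2900041M22Rik (7.42 ± 0.545) and Gm36503 (6.29 ± 0.270). The ranges of mean ± SD overlapped between neighbours among the first 4. With MGH-CP1 it was Malat1 (66.6 ± 7.74), Gm26917 (42.2 ± 14.1), Xist (21.6 ± 3.27), H19 (3.47 ± 0.432) and 2900041M22Rik (3.45 ± 0.723), the last pair differing by less than their SD. In vehicle 11 genes were at or above 1 FPKM, of which 3 were higher and 8 lower with MGH-CP1, and the other 23 were at 0.721 or below. The median vehicle level was 0.0914 FPKM for the 22 higher genes and 2.22 for the 12 lower ones; level and change share the vehicle values, so this is a description.

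RefSeq promoters (a window around the RefSeq transcription start) were found for 17 of the 34 genes, 20 windows in all. A RefSeq start can differ from the GENCODE M21 start used for distances above. The Lncpint window lies wholly inside the gene, whose GENCODE M21 start is at 31220488, and the 4921531C22Rik window also lies inside its gene. The Sptbn5 window lies wholly outside the gene, before its start at 120085693. Also wholly before the gene lie the windows of Gm12958, Gm15609, Gm34921, Gm36503 and 2010001A14Rik, and some of those of F730311O21Rik. The TEAD core GGAATG, searched on both strands, was in 0 of the 17 genes' windows and in 14.7% of all 32851 RefSeq promoters. The AP-1 site TGANTCA was in 0 (7.81% of all), the cyclic AMP element TGACGTCA in 0 (1.79%), and the p53 half-site in 1, BC106179 (8.36%). The E-box CACGTG was in 4, AA465934, BC106179, Ifi30 and Lncpint, against 7.15% of all. The promoters of Malat1 (chr19:5802623-5802922, minus strand) and Lncpint (chr6:31218425-31218724, minus strand, GRCm38.p6) are shown because these were the largest tested rises; capitals mark the E-box, and Malat1 has none of the searched motifs.
Malat1 promoter: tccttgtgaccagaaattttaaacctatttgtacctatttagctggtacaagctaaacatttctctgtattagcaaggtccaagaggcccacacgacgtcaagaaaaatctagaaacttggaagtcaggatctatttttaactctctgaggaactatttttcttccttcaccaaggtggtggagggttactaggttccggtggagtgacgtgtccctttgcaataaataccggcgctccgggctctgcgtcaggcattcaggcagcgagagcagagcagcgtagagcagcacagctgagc
Lncpint promoter: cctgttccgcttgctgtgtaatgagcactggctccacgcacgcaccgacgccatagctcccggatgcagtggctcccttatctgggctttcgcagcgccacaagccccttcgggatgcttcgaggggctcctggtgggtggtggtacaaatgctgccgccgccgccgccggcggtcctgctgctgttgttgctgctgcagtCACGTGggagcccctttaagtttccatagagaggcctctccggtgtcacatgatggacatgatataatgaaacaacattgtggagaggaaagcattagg

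Encoded A runs were also looked up, because the libraries were captured on poly-T beads. A run of at least 12 A was found in the transcripts of 6 of the 34 genes (17.6%). The share was 4.03% of 14797 GENCODE M21 genes with transcripts of these biotypes. Many of the 14797 are genes of another biotype, as 6834 genes carry these biotypes themselves. All transcripts of the 34 were read, but only those of these biotypes for the 14797. The longest transcript read was also shorter for the 14797 (median 788 bases against 2100), so the shares are not a like comparison. The 6 genes were Malat1, Xist, Trp53cor1 and 4632427E13Rik, which rose, and BC106179 and 2900041M22Rik, which fell. The 14797 genes were taken whether detected or not, and the part of such runs in capture was not tested.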

How the data were processed

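Per the labels' protocols, poly(A) RNA was captured on poly-T beads, fragmented and primed at random, with no strand-marking step described. Named in the submitters' processing notes are DESeq2 1.20.0, featureCounts 1.5.0-p3, HISAT2 2.0.5 and fastp. No genome build is given in those sources. GRCm38 was assumed, since all 34 genes have the same start and end in GENCODE M21.

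Per the file headers, the authors deposited raw counts, FPKM (with gene lengths), log2 fold changes and p-values. Their normalised signal equals, on the values, the deposited count over 1 size factor per library (100% of genes within rounding). Totals, recovered from counts, FPKM and length, were 31852117 to 40020833 in vehicle and 19934012 to 24310817 with MGH-CP1.

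Of the 471 genes, the 355 that passed filterByExpr (minimum count 10) were fitted with edgeR 4.0.16 (quasi-likelihood, two-sided, R 4.3.3). The fit used the counts, scaled by the authors' size factors, with Benjamini-Hochberg adjustment over the 355 at 0.05. TMM was avoided because the table holds only changed genes. The authors chose the genes on these libraries, so a call is no independent evidence. On simulated counts of 355 genes for this comparison, the share called was 1.29% for unchanged genes, 87% at a log2 change of 1 and 99% at 2. The simulation held 155 unchanged genes and 100 at each change, with dispersions from the fitted trend. It made no choice of genes on the same data, as the authors did, so the 1.29% is no error rate for the calls here. Named were up to 10 of the largest rises and falls each (called, mean at or above the tested median, ranges apart), which gave 6 rises and 7 falls, and genes with a regular symbol; the rule also named genes with a listed coding neighbour, of which there were 0. All others are accounted for by counts or values. The members and lists were chosen with earlier results of these data known. P-values measure the spread between these samples. Alternatives were TMM, total counts, DESeq2 1.42.0, no filter, a threshold of 0.01, a replicate block, dispersion over noncoding genes, genes free of exon overlap, and each library left out. Figures used matplotlib 3.10.9.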

Additional observations from a re-analysis of the deposited data

How the results depend on the processing

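The 25 tested genes kept their direction under every alternative run. All 25 also kept their call with TMM factors, total counts as library sizes, DESeq2, no filter and dispersion over genes that are not protein-coding. At an adjusted p threshold of 0.01, 23 were called. TMM moved the median log2 change of all tested genes by 0.139. The replicate numbers do not pair the samples (correlations of same-numbered libraries −0.0579, −0.0552 and −0.0257), and with the replicate block 25 were called, 14 higher and 11 lower. Leaving out 1 library at a time gave 25 to 29 calls among the long noncoding RNA genes, 13 to 17 higher and 11 to 12 lower, and 365 to 385 calls among all listed genes, 185 to 194 higher and 172 to 195 lower. More genes passed the filter in these runs, so the counts hide lost calls among the 25. Without vehicle replicate 2, 24 of the 25 stayed called (AA465934 lost). Without vehicle replicate 3, 24 stayed called (9330188P03Rik lost). Without MGH-CP1 replicate 3, 23 stayed called (Trp53cor1 and 9330188P03Rik lost). The other runs kept all 25. With no filter 22 of the 34 were higher, and 270 of all listed genes. Restricted to genes sharing no exon base with another gene, 12 were called, 6 higher and 6 lower. The fit over genes that are not protein-coding tested fewer genes and called 168, 89 higher and 79 lower. No member was in the dinaciclib table, so nothing was recomputed for that compound. The count of nearest coding neighbours in the table was 0 at every distance tried. Depth limits the 9 untested genes, with 1 to 3 counts or none in the lower group for 5 of them.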
